A study of Homo sapiens with 3 samples.

Results

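The regions described here are TEAD peaks whose summit lay inside a short stretch of H3K27ac in 786-O cells, an established clear cell renal carcinoma line. They were chosen by peak position: the TEAD interval overlapped exactly 1 H3K27ac interval, the TEAD summit lay inside it, and that H3K27ac interval was at most 1000 bp wide. On chromosomes 1 to 22 and X, 1962 of 35241 TEAD regions met these conditions, 5.57% (95% Wilson interval 5.33 to 5.81%). They lay in 1959 of the 27324 H3K27ac regions of at most 1000 bp, called narrow here. The series holds 1 TEAD library, 1 H3K27ac library and 1 input library, all from 786-O cells grown in RPMI-1640 with serum and with no treatment named in the labels, so there is no replicate and no test below. Regions of 1 library are not replicates of a condition, and intervals cover counting error only.

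TEAD proteins bind DNA through a TEA domain and recruit the co-activators YAP and TAZ, which the Hippo kinase cascade keeps out of the nucleus; they act mostly at enhancers away from gene starts. Acetylation of lysine 27 on histone H3 marks the nucleosomes that flank active enhancers and promoters, while the DNA bound by factors in between is often depleted of nucleosomes. A narrow H3K27ac region spans only a few nucleosomes. The labels name the antibody target only as TEAD. The TEAD peaks are labelled TEF1 and TEF3, and RefSeq lists TEF-1 as a synonym of TEAD1 and TEF3 as one of TEAD4. The series' title concerns YAP and a complex of TEAD with NF-κB in this cancer.

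The H3K27ac regions that held these summits were weak next to wider ones. Their H3K27ac fold enrichment over local background had a median of 5.54 (interquartile range 4.49 to 7.27) and ran from 2.36 to 28.1, against a median of 13.9 around the 17080 TEAD summits inside a single H3K27ac region wider than 1000 bp. An H3K27ac fold of at least 10 was reached under 177 of the 1962 summits, 9.02% (7.83 to 10.4%), against a background of 30.5% among all 52667 H3K27ac regions. Width was fixed by the rule and went with H3K27ac fold among these summits (Spearman 0.42, n = 1962), so the rule bears on H3K27ac fold as well. The H3K27ac intervals had a median width of 718 bp. The 8 summits just inside the limit, in H3K27ac regions of 999 or 1000 bp, had TEAD folds of 3.94 to 17.3 and H3K27ac folds of 3.92 to 28.1. The 11 just outside it, at 1001 to 1003 bp, had TEAD folds of 2.68 to 46.0 and H3K27ac folds of 3.34 to 19.8.

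TEAD enrichment at these summits was close in the middle of the distribution to that in wider acetylated regions, but very strong summits were fewer. Median TEAD fold was 6.79 (5.26 to 9.96) in narrow H3K27ac regions, against 7.14 (5.19 to 11.99) in the wider regions. A TEAD fold of at least 10 was reached by 485 summits in narrow regions, 24.7% (22.9 to 26.7%), where the background over all TEAD regions was 30.4%. A fold of at least 20 was reached by 113 summits, 5.76% (4.81 to 6.88%), against 10.995% (10.5 to 11.5%) in wider regions and a background of 9.26%. Low shares were not particular to narrow regions. Split by H3K27ac width, the share was 6.32 to 7.79% from 1001 to 2000 bp and 10 to 15.4% in the bins beyond 2000 bp. At 30-fold the shares were 1.63% (1.16 to 2.29%) in narrow and 5.17% (4.85 to 5.51%) in wider regions. The low end differed less: 19.8% of summits in narrow regions and 22.9% in wider regions were under 5-fold.

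**Figure D1:**
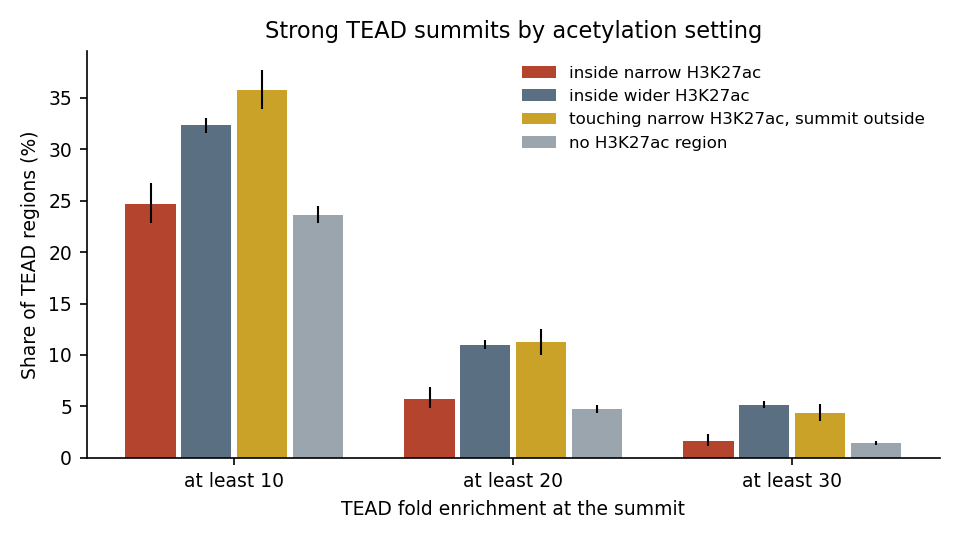
Bars give the share of TEAD regions (%) that reached a TEAD fold of at least 10, 20 and 30, by acetylation setting; error bars are 95% Wilson intervals. Summits inside narrow H3K27ac reached 20-fold in 5.76% of cases, against 10.995% inside wider H3K27ac, and sat close to the 4.71% of TEAD regions with no H3K27ac region.

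In the strength of TEAD, summits in narrow regions resembled TEAD regions that overlapped no H3K27ac. Those 11132 regions had a median fold of 6.83, a median summit pileup of 21 reads and a share of 4.71% (4.33 to 5.12%) at 20-fold or more, next to 6.79, 21 reads and 5.76% in narrow regions. The nearest relatives by position, 2424 TEAD regions that touched a single narrow H3K27ac region with the summit outside it, were stronger. Their median fold was 7.86 (5.66 to 12.7) and 11.2% (10.03 to 12.54%) reached 20-fold. For summits inside narrow regions the TEAD interval had a median width of 423 bp, and for those outside 475 bp; TEAD width and fold went together (Spearman 0.63 across the 1962). Of the 4386 TEAD regions that touched a single narrow H3K27ac region, 44.7% (43.3 to 46.2%) had their summit inside it. At the boundary itself the groups met: the 240 summits in the last 25 bp inside had a median TEAD fold of 7.06, and the 240 up to 25 bp outside had 6.98.

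The reads behind these values were few. The number of TEAD reads over the summit (the pileup) was 21 at the median in narrow regions and 27 in wider ones, and a count of 21 carries an exact Poisson interval of 12.999 to 32.1. The recovered local background was lower as well, 2.10 against 2.81 reads at the median, so the groups lay further apart in reads than in fold. Within quintiles of background the median TEAD fold in narrow regions was 0.93, 0.93, 0.89, 0.85 and 0.87 times that in wider regions, from the lowest to the highest. The share at 20-fold or more was lower in narrow regions in all 5 quintiles, for example 6.98% against 12.9% in the lowest and 3.59% against 8.80% in the highest. The part of the background in these differences was not tested further.

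Across the range of H3K27ac width, median TEAD fold varied from bin to bin with no steady course below 2000 bp. It lay between 6.502 and 7.35 in the 7 width bins up to 1000 bp. On either side of the limit it was 7.35 (6.53 to 7.88) at 901 to 1000 bp and 6.66 (6.44 to 6.98) in the next bin, with overlapping intervals. The bin at 501 to 600 bp also had 7.35 (6.76 to 7.88). It lay between 6.57 and 6.72 in the 3 bins from 1001 to 2000 bp. It then reached 6.97 at 2001 to 3000 bp, 7.73 at 3001 to 4000 bp and 7.87 beyond 6000 bp. The share of summits at 20-fold or more went from 4.06% (2.07 to 7.81%) at 299 to 400 bp through 7.39% (5.09 to 10.6%) at 901 to 1000 bp to 15.4% (14.0 to 16.9%) beyond 6000 bp. It showed no step at the limit. In the 3 bins from 1001 to 2000 bp it was 6.32%, 7.12% and 7.79%, all inside the interval of the bin at 901 to 1000 bp. At 2001 to 3000 bp it was 10% (9.15 to 10.9%). The acetylation changed far more: median H3K27ac fold around the summits was 4.45 in the narrowest bin, 6.87 at 901 to 1000 bp and 21.2 in the widest.

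**Figure D2:**
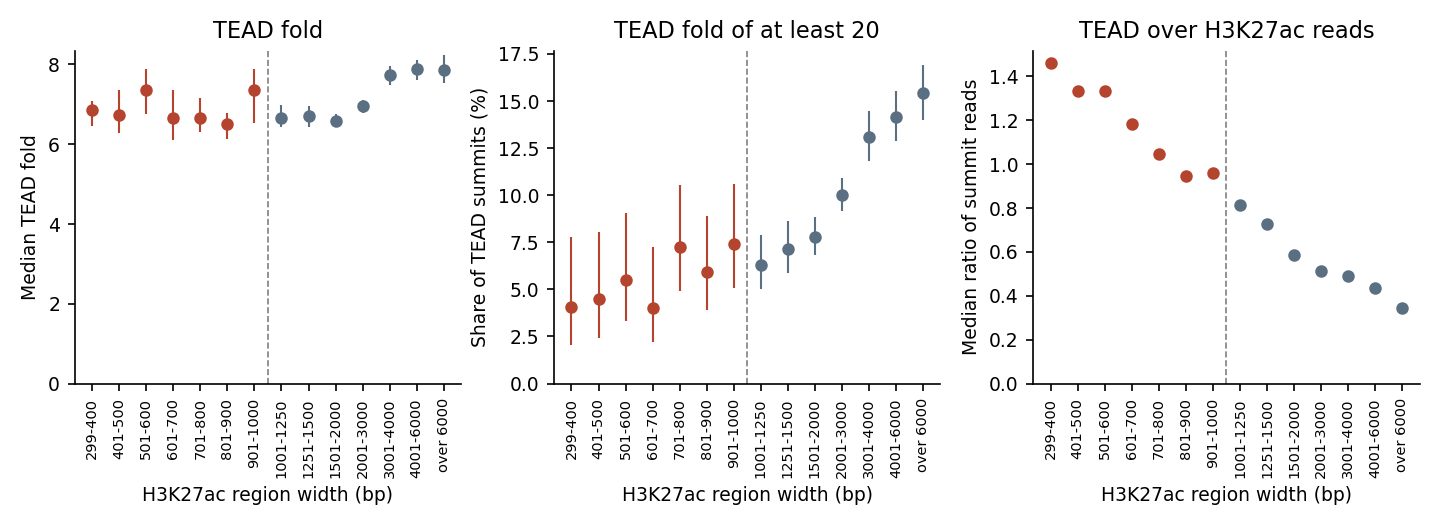
TEAD summits inside a single H3K27ac region, binned by the width of that region (bp): median TEAD fold with its 95% order-statistic interval, share with a TEAD fold of at least 20 (%, 95% Wilson interval), and median ratio of TEAD to H3K27ac summit reads. Red points are narrow regions, grey-blue points wider ones, and the dashed line is the 1000 bp limit; the read ratio is 1.46 in the narrowest bin, 0.96 at 901 to 1000 bp, 0.81 in the next bin and 0.35 in the widest.

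The balance between the factor and the mark differed between narrow and wider regions, more through the mark than through the factor. Median H3K27ac summit pileup was 19 reads in narrow and 59 in wider regions, while median TEAD summit pileup was 21 and 27. Width went with H3K27ac fold, so the width rule bears on this ratio as well. In narrow regions the TEAD summit pileup exceeded the H3K27ac summit pileup for 1146 summits, 58.4% (56.2 to 60.6%), against 22.2% (21.6 to 22.9%) in wider regions. The share was higher still, 75.9% (74.1 to 77.5%), for TEAD regions that touched a narrow region with the summit outside it. The read totals of the libraries are not given, so a ratio of 1 has no meaning of its own and only ratios between groups can be read. The median ratio of TEAD to H3K27ac reads was 1.16 in narrow regions, 0.52 in wider regions and 1.58 with the summit outside a narrow region. The ratio was at least 4 for 76 summits in narrow regions (3.87%), against 1.15% in wider regions and 12.1% with the summit outside. It was under 0.5 for 156 summits in narrow regions (7.95%), against 47.9% in wider regions and 2.89% with the summit outside.

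Within the set, the strength of TEAD showed little relation to that of acetylation. Spearman's correlation between TEAD and H3K27ac fold was -0.06 across the 1962 summits, which share both libraries and a correlated local background (Spearman 0.74 between the recovered backgrounds). Between the summit pileups it was of the opposite sign, 0.16. Median TEAD fold was 7.06 where H3K27ac fold was up to 4 (260 summits), 6.93 at 6 to 8 (455 summits) and 5.75 above 15 (49 summits). A TEAD fold of at least 10 was found at 74 of the 260 weakest acetylated summits, 28.5% (23.3 to 34.2%), and at 7 of the 49 strongest, 14.3% (7.10 to 26.7%). That share was 24.7% over the set, against a background of 30.4% over all TEAD regions. Between the extremes it had no steady course, with 23.5% at 4 to 5, 20.8% at 8 to 10 and 24.2% at 10 to 15. Both folds reached 10 at 38 summits (1.94%), TEAD alone at 447 (22.8%), H3K27ac alone at 139 (7.08%) and neither at 1338 (68.2%). Taken singly, a fold of at least 10 had a background of 30.4% for TEAD and 30.5% for H3K27ac. The joint counts were not made for wider regions.

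**Figure D3:**
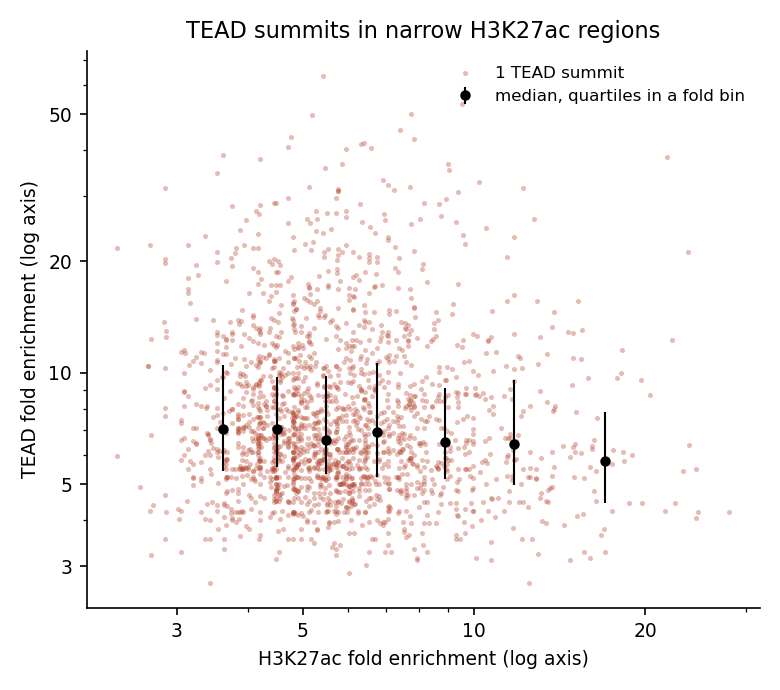
Each red point is a TEAD summit in a narrow H3K27ac region, with H3K27ac fold on the horizontal and TEAD fold on the vertical axis (both log axes). Black points are medians with quartiles in bins of H3K27ac fold; they stay between 5.75 and 7.06 while H3K27ac fold spans 2.36 to 28.1.

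The strongest TEAD summits of the set lay in H3K27ac regions of ordinary strength for the set, with a median H3K27ac fold of 6.36 over the first 10 against 5.54 over all 1962. The highest lay on chromosome 2 from 43181387 to 43182190 (hg19, counted from 1), with 196 TEAD reads (95% Poisson interval 170 to 225) over a background of 2.10 and a TEAD fold of 63.5. Its H3K27ac region spanned 43181228 to 43182147 with 17 reads at the H3K27ac summit and an H3K27ac fold of 5.42, so TEAD reads were 11.5 times the H3K27ac reads. The next were on chromosome 14 from 53477613 to 53478257 (TEAD fold 53.5, H3K27ac fold 9.52) and on chromosome 11 from 48073689 to 48074415 (50.2 and 7.75) and from 68898852 to 68899628 (49.9 and 5.19). The other 6 among the first 10 began at 4133229 (chromosome 17), 131637865 (chromosome 9), 31634769 (chromosome 14), 32057724 (chromosome 10), 28192488 (chromosome 16) and 32749189 (chromosome 15). All 10 had TEAD folds of 40.7 to 63.5 and H3K27ac folds of 4.71 to 9.52, and none had its summits closer than 144 bp. Counting intervals of neighbours in this order overlapped, so adjacent ranks are not resolved.

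The ratio of TEAD to H3K27ac reads was 8.73 to 11.5 at the 5 summits where it was highest. Besides the chromosome 2, chromosome 11 (from 68898852) and chromosome 9 summits above, these included chromosome 4 from 55031090 to 55032093, with 126 TEAD reads over 11 H3K27ac reads. In that case the H3K27ac interval, 437 bp wide, lay wholly inside the TEAD interval of 1004 bp. Such nesting of the mark within the factor's interval was found for 84 summits, 4.28%, in narrow regions and for 3 of the 17080 in wider ones. The width limit bears on that contrast, because an H3K27ac interval over 1000 bp fits only inside a still longer TEAD interval. The TEAD intervals in wider regions had a median width of 515.5 bp. The fifth was on chromosome 1 from 6784473 to 6785127, with 131 TEAD reads and 15 H3K27ac reads.

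The opposite case was a sharp, strong acetylation peak with a TEAD summit of low fold for the set. On chromosome 8 from 82598271 to 82598600 the TEAD fold was 4.20 on 15 reads (8.40 to 24.7), inside an H3K27ac region of 999 bp with a fold of 28.1 on 110 reads. On chromosome 14 from 100149952 to 100150516, 12 TEAD reads stood against 76 H3K27ac reads, and on chromosome 20 from 56964121 to 56964636, 13 against 91. Among the 5 lowest ratios were also chromosome 1 from 161359304 to 161359617 (10 TEAD and 59 H3K27ac reads) and chromosome 19 from 2950502 to 2950983 (19 and 107). Of the 10 summits with the highest H3K27ac fold (21.8 to 28.1), 7 had 12 to 19 TEAD reads and TEAD folds of 4.05 to 6.38. Another was on chromosome 6 from 170996001 to 170996664, where TEAD reached 38.3-fold with H3K27ac at 21.8-fold. The remaining ones were chromosome 3 from 182817049 to 182817627 (TEAD 21.2-fold, H3K27ac 23.8-fold) and chromosome 15 from 75315662 to 75316133 (TEAD 12.2-fold, H3K27ac 22.3-fold). At these 3 of the 10 a TEAD fold of at least 10 came with an H3K27ac fold above 20. That is near the share with such a TEAD fold, 24.7% over the set and 30.4% over all TEAD regions.

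Even in so short a region the TEAD summit was set off from the acetylation summit. Median distance between the summits was 196 bp (117 to 286 bp). A distance below 100 bp was found for 395 of 1962 TEAD summits, 20.1% (18.4 to 21.96%), while 31.4% of the bases of the same H3K27ac regions lay that close, a ratio of 0.64. Between 200 and 300 bp lay 27.3% (25.4 to 29.3%) of summits against 18.5% of bases, a ratio of 1.48. Beyond 500 bp summits were again fewer than bases, 2.85% against 5.08%. Both summits fell on the same base in 6 cases. The 5 of these with the highest TEAD fold began at 70881798 and 71603266 on chromosome 3, 171602426 on chromosome 5, and 47640653 and 115105807 on chromosome 12, with TEAD folds of 4.85 to 10.5 and H3K27ac regions of 337 to 417 bp. Over the whole set, the TEAD summit was on the lower-coordinate side in 47.3% (45.1 to 49.5%).

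**Figure D4:**
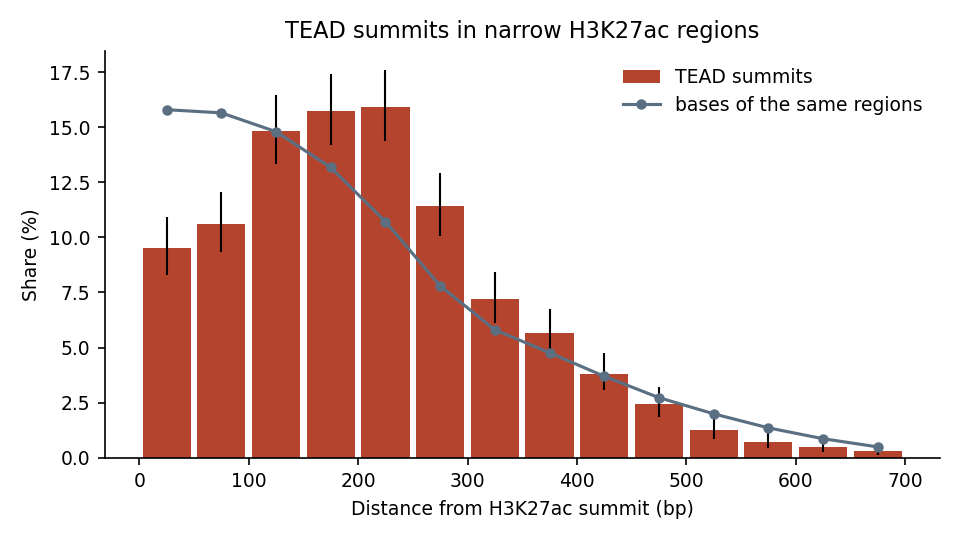
Bars give the share of the 1962 TEAD summits (%) by distance from the H3K27ac summit in 50 bp bins, with 95% Wilson intervals; the line gives the share of the bases of the same H3K27ac regions. Summits fall below the line within 100 bp and exceed it in each bin between 150 and 400 bp.

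The offset was present at every width examined. In regions of 299 to 500 bp, 36.6% (32.1 to 41.3%) of TEAD summits were within 100 bp of the H3K27ac summit against 49.0% of bases, and in regions of 851 to 1000 bp 11.8% (9.29 to 14.8%) against 21.5%. The preferred distance was shorter than in wider regions: the fullest 50 bp bin was 200 to 250 bp in narrow regions (15.9% of summits) and 300 to 350 bp in wider regions (8.98%). A short region bounds the distance, so the bins are not directly comparable between widths. The depletion within 100 bp was of similar size, with ratios of 0.64 in narrow and 0.62 in wider regions. Median TEAD fold was 6.44 for the 190 summits up to 50 bp from the H3K27ac summit and 7.06 for the 532 over 200 and up to 300 bp away. The share at 20-fold or more was lowest in the first of these bins, 1.05%, and highest in the second, 7.33%. In the bins between them it was 5.12%, 5.92% and 6.80%. It was 5.53% over 300 and up to 400 bp away and 5.11% beyond, where the background over all TEAD regions was 9.26%.

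Where another H3K27ac region lay close by, the TEAD summit leaned towards it. With the next H3K27ac region up to 500 bp away, 369 of 584 TEAD summits, 63.2% (59.2 to 67.0%), were on its side of the H3K27ac summit, and 48.5% of bases were on that side. The 10% of the region's length next to the neighbour held 22.3% (19.1 to 25.8%) of these summits and the 10% farthest from it 7.53% (5.66 to 9.96%). With the next region 500 to 1000 bp away the share was 53.8% (45.3 to 62.2%) against 45.3% of bases, and at 1000 to 5000 bp it was 52.2% (47.1 to 57.3%) against 49.7%. At 5000 to 12500 bp it was 44.9% (39.2 to 50.7%), below the 50.8% of bases. Above 12500 and up to 50000 bp it was 50.4% (45.5 to 55.3%) against 50.1%, and beyond 50000 bp 53.6% (46.6 to 60.4%) against 47.96%. The rule left out TEAD regions that touched both neighbours, which removes summits closest to the gap. In wider regions with a neighbour up to 500 bp away the share was 47.7% (46.4 to 49.0%), against 47.5% of bases. At the ends of those wider regions, however, the 10% of the length next to the neighbour held 5.53% of summits and the 10% farthest from it 2.67%.

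**Figure D5:**
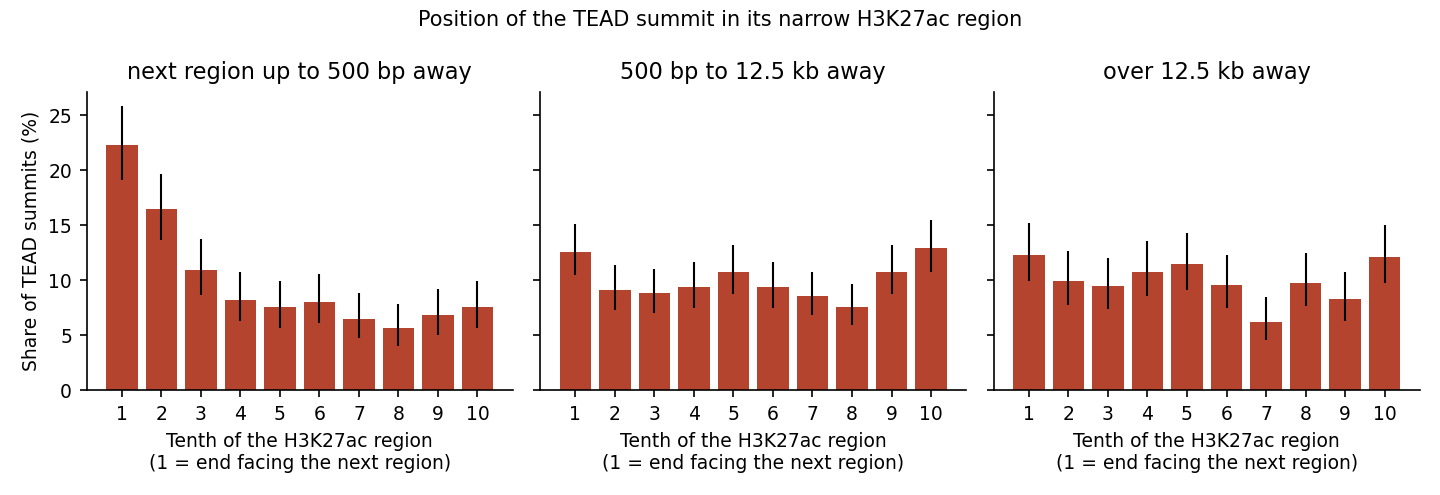
Share of TEAD summits (%) in each of 10 equal parts of their narrow H3K27ac region, with the region turned so that part 1 faces the nearest other H3K27ac region; panels split by the distance to that region and error bars are 95% Wilson intervals. With a neighbour up to 500 bp away 22.3% of summits lie in part 1 and 7.53% in part 10; beyond 12500 bp the shares are 12.3% and 12.1%.

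TEAD summits in narrow regions more often stood alone than those in wider regions. No other H3K27ac region lay within 12500 bp for 594 of the 1962 summits, 30.3% (28.3 to 32.3%), against 22.5% (21.9 to 23.2%) of summits in wider regions and 34.0% (32.1 to 35.9%) of TEAD regions with the summit outside a narrow region. No other TEAD region lay within 12500 bp for 46.3% (44.1 to 48.5%) in narrow and 29.3% (28.7 to 30.03%) in wider regions. With the summit outside a narrow region that share was 48.1% (46.1 to 50.1%). Width bears on this contrast and on the gap given next, because TEAD regions in 1 wide region count as neighbours of each other. Beyond 6000 bp 2343 summits lay in 930 H3K27ac regions, while 3 of the 1959 narrow regions held 2. The shares were not computed over all TEAD regions. The median gap to the next TEAD region was 10933.5 bp in narrow regions, 4292.5 bp in wider regions and 11504 bp with the summit outside. Large acetylated domains were built by joining H3K27ac regions over gaps of up to 12500 bp. They held 7.24% (6.17 to 8.47%) of summits in narrow regions and 26.1% (25.4 to 26.8%) in wider ones. Of TEAD regions with the summit outside a narrow region they held 5.61% (4.76 to 6.60%). Domains were ranked by fold times width, so wide regions favour that call. The most isolated summit was on chromosome 2 from 125741171 to 125741735, 1671469 bp from the next H3K27ac region, with a TEAD fold of 22.9 and an H3K27ac fold of 7.07. The next 4 began at 239979549 and 106206802 on chromosome 1, 70506828 on chromosome 6 and 57497758 on chromosome 10, with TEAD folds of 3.92 to 7.01. Across the set, median TEAD fold was 6.53 with the next H3K27ac region up to 500 bp away, 7.35 at 1000 to 5000 bp and 6.66 beyond 50000 bp.

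Set against narrow H3K27ac regions that overlapped no TEAD region, those with a TEAD summit were wider, slightly more acetylated and more isolated. Median width was 717 bp with and 482 bp without TEAD, and median H3K27ac fold 5.54 and 4.64. Within the 7 width bins, median H3K27ac fold with TEAD was 1.02 to 1.09 times that without. The share of narrow regions that held such a TEAD summit was 2.42% (2.10 to 2.77%) at 299 to 400 bp and 18.005% (16.4 to 19.8%) at 901 to 1000 bp, and a longer region can hold a summit by size alone. Counting only TEAD regions that overlapped a single H3K27ac region, narrow regions held 1.302 summits (1.24 to 1.36) per 10 kb of acetylated sequence. Wider regions held 2.81 (2.77 to 2.85). Both values leave out TEAD regions that touched 2 or 3 H3K27ac regions, of which 209 had their summit inside a narrow one. Of narrow regions, 30.3% with TEAD and 17.0% (16.5 to 17.6%) without had no other H3K27ac region within 12500 bp. The exclusion of TEAD regions that touch 2 H3K27ac regions can lower the number of close neighbours among those with TEAD. Of regions with no neighbour within 1 kb, 47.8% (45.0 to 50.6%) with and 38.1% (37.1 to 39.1%) without TEAD had none within 12500 bp. Unlike H3K27ac fold, isolation was not compared within width bins.

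Of the 1959 narrow regions that held a summit of the set, 3 held 2. They lay on chromosome 6 from 28911476 to 28912336 and from 53791479 to 53792294, and on chromosome 11 from 128585796 to 128586617. Their 6 TEAD regions had folds of 3.92 to 8.37 on 8 to 33 reads, on both sides of the set's medians of 6.79 and 21 reads, and H3K27ac folds were 7.85, 8.28 and 8.57. In the last of them the TEAD summits had 8 and 25 reads, and in the first 33 and 20.

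The set was spread over all 23 chromosomes examined. It made up 7.36% (6.16 to 8.77%) of the TEAD regions of chromosome 12, the highest share, and 3.93% (2.76 to 5.55%) of those of chromosome 18, the lowest. The share of narrow H3K27ac regions that held such a summit was also lowest on chromosome 18 (4.93%) and highest on chromosome 12 (8.81%). Median TEAD fold by chromosome stayed between 6.12 and 7.38. Median recovered background at these summits ran from 1.32 reads on chromosome 13 and 1.40 on X to 3.02 on chromosome 8, and its part in these shares was not tested.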

How the data were processed

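The authors deposited 1 peak list per ChIP library. The submitters' processing notes list MACS2, Bowtie2 2.4.5 and fastp, and hg19 as build; their roles and settings are not stated there. For each peak the authors deposited a fold enrichment ratio at the summit, its −log10 p and −log10 q, the summit offset and a whole-number score, which was not used. Chromosome Y peaks (123 TEAD, 183 H3K27ac) were left out. Intervals were joined on at least 1 shared bp.

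Summit pileup k and background b were recovered from fold and p, with k a whole number, the fold taken as (k + 1)/(b + 1) and p as the Poisson upper tail; 100% of regions matched within 0.002 in −log10 p. The recovered background is called local background. Which control gave it, and the total reads, are not stated in the labels; the input library's own data were not used here.

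Regions named are the extremes of TEAD fold, H3K27ac fold, read ratio and isolation, regions with the most summits, coincident summits, and those next to the width limit (as ranges). Members, lists and rules were chosen with earlier results of these data known. No genome or gene annotation of the files' build was used here, so motifs, gene starts and genes are not analysed. Functions were checked on simulated data. Python 3.11.15, pandas 2.3.3, scipy 1.17.1 and statsmodels 0.14.6 were used.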

Additional observations from a re-analysis of the deposited data

How the results depend on the processing

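Of 52 alternative values, 27 from the plan and 25 added with the values known, 39 moved by less than the 95% interval of the reported value and none changed direction. The ratio of median TEAD fold, narrow over wider regions, was 0.95. It was 0.93 with a width limit of 1500 bp, 0.78 from the summit pileup and 0.92 within background quintiles. Within those quintiles the pileup ratio of 0.78 became 0.88. Without the summits in narrow regions that had another H3K27ac region within 1 kb, the fold ratio was 0.976 (0.933 to 1.024), an interval that includes 1. All summits in wider regions were kept in that ratio, and 59.0% of them had no other H3K27ac region within 1 kb. H3K27ac fold with over without TEAD at equal width was 1.06, and 1.04 both with H3K27ac −log10 q of at least 5 and without summits that had another H3K27ac region within 1 kb. The share of TEAD summits within 150 bp of the H3K27ac summit was 34.96% against 46.2% of bases; it was 42.5% (55.9% of bases) with a limit of 750 bp, 25.9% (33.9%) with 1500 bp, 32.6% (44.9%) with the stricter H3K27ac threshold and 20.1% (31.4%) for 100 bp. The isolated share of 30.3% (22.5% in wider regions) was 33.9% (26.0%) with the stricter H3K27ac threshold and 44.7% (36.8%) within 5 kb. The share on the side of a neighbour, 63.2%, was 57.9% (46.3% of bases) with 1500 bp. The planned motif and gene-start results were not run, because no genome or annotation of the build was used here. No paired analysis was possible because each antibody has 1 library. At 21 reads, the median pileup, regions of similar fold cannot be ranked.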
